A study of Mus musculus with 32 samples.

Results

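The T cell receptor complex and T cell lineage markers were represented by 10 genes, Cd3d, Cd3e, Cd3g, Cd247, Cd8a, Cd8b1, Lck, Cd4, Foxp3 and Ccr8, chosen by name and present in all 4 deposited expression tables among 33654 gene rows per table. In the CD8 T cell tables they served to check identity and purity, with Cd4, Foxp3 and Ccr8 as signs of other T cells. In the tumor tables they measured T cell RNA over weeks and hairpin arms.

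The T cell receptor signals through the CD3 chains and the zeta chain, which carry the motifs that the kinase Lck phosphorylates. The coreceptors CD8 and CD4 bring Lck to the receptor and mark the cytotoxic and helper lineages. In tumors, regulatory T cells are known for the transcription factor Foxp3 and, in many tumor types, for the chemokine receptor Ccr8.

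The series held 32 RNA-seq libraries of mouse MMTV-PyMT tumors, a model named for a mammary tumor virus promoter that drives polyoma middle T antigen in mammary epithelium. Tumor cells were collected at weeks 2, 3 and 4 of tumor growth (3, 4 and 4 libraries), and CD8 T cells at the same weeks (3 libraries each). A hairpin set came from xenografts labelled shMogat1 and shCTRL, again as tumor cells and as CD8 T cells (3 libraries for each cell type and arm). The labels named MMTV-PyMT as the cell line in every group, gave no mouse strain or age, and did not say whether replicates came from separate animals or how the cells were isolated, so p-values measure only the spread between these libraries, which may be technical.

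All values were in TPM, a share of a library's transcripts scaled by gene length, with 11829 to 14184 genes at 1 TPM or more per library. The tumor libraries of the hairpin set went against their labels. Mogat1, the targeted gene, was listed at 0.624, 0.146 and 0.531 TPM in the tumor libraries labelled shMogat1 and at 0 in all 3 tumor libraries labelled shCTRL, against 35.8 to 39.6 TPM in week 4 tumors, so the knockdown was not visible there. In CD8 T cells Mogat1 was at 0.515, 0.577 and 0.208 TPM in libraries labelled shMogat1 and 0.208, 0.287 and 0.211 TPM in those labelled shCTRL. Epcam, an epithelial surface marker, was at 28.4 to 30.8 TPM in the tumor libraries labelled shMogat1 and 0.56 to 0.864 TPM in those labelled shCTRL, against 249 to 567 TPM in the tumor week libraries. The tumor label was therefore not borne out by Epcam in the libraries labelled shCTRL, and directions between these arms are given for libraries as labelled. Replicates of the hairpin set also differed little: the median squared difference between replicate pairs was 2.28 to 3.3 times the Poisson expectation over 12 pairs, against 6.6 to 30.9 times over 24 pairs of the week libraries.

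Cd3g, Cd3d and Cd3e share a cluster on chromosome 9 (GRCm38, GENCODE M21). Cd3g lies at chr9:44969572-44980431 on the minus strand and Cd3d at chr9:44981786-44987339 on the plus strand, with their starts facing away from each other across 1354 bases, and Cd3e lies at chr9:44998740-45009627 on the minus strand. Cd8b1 (chr6:71322788-71337494) and Cd8a (chr6:71373427-71379173) are neighbours on chromosome 6, both on the plus strand. The 250 bases before the RefSeq start of the 3 CD3 genes are shown, from RefSeq on GRCm38.p6, because Cd3e parted from Cd3d and Cd3g in the week 4 tumors described further on. Capitals mark letters of an ETS core (AGGAAG or its reverse complement CTTCCT) and of a GATA core (AGATAA or TTATCT).
Cd3g: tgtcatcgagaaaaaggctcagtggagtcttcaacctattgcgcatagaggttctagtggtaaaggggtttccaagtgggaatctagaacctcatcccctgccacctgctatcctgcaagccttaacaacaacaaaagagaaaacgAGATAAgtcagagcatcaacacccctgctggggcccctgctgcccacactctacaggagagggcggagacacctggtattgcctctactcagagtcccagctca
Cd3d: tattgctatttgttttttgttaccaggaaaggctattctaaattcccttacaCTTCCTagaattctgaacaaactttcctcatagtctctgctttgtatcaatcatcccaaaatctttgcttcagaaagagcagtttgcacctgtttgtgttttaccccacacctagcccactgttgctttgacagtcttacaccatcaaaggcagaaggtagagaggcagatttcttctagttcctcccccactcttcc
Cd3e: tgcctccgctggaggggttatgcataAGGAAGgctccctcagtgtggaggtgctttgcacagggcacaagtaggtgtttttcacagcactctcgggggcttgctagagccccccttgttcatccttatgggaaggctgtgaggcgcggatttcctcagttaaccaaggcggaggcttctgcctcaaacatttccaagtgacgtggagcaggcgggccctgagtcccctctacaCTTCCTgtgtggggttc
These stretches are chr9:44980432-44980681 (minus strand), chr9:44981536-44981785 (plus strand) and chr9:45009612-45009861 (minus strand). Cd3e held the ETS letters at 2 places, starting 224 and 17 bases before the start, Cd3d at 1 place, 198 bases before it, and Cd3g at none. Cd3g alone of the 3 held the GATA letters, 104 bases before its start. A RUNX core (TGTGGT or ACCACA) and a TATA box (TATAAA or TTTATA) were searched on both strands and found in none of the 3. Among 32817 upstream stretches of the same length, 29.5% held the ETS letters, 14.0% the RUNX letters and 12.4% the TATA letters, and 3279 stretches held the GATA letters, so each match is common and describes the sequence only. Of the 10 genes, 8 had an entry in the sequence table; Cd4 and Cd8b1 did not.

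The CD8 libraries carried the genes of their label at high levels. Cd3d was at 413 to 600.4 TPM, Cd3e at 434 to 866 TPM and Cd3g at 894 to 1873 TPM over the 15 CD8 libraries. Cd8a, the chain that pairs with itself or with CD8 beta, was at 673 to 1173 TPM, and Cd8b1, the beta chain of conventional cytotoxic T cells, at 577 to 820.2 TPM. Lck lay between 554 and 781 TPM and Cd247, the zeta chain, between 46.2 and 101 TPM. Of these 7 genes, Cd247 had the lowest TPM, a level per gene length, in every CD8 library.

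Cd4 and Foxp3 were low but not absent in the CD8 tables. Cd4 was at 2.04, 10.9 and 3.95 TPM at week 2, 1.96, 7.59 and 5.24 TPM at week 3 and 5.57, 0.584 and 4.64 TPM at week 4. In the hairpin set Cd4 was at 12.3, 12.7 and 13.7 TPM in libraries labelled shMogat1 and 17.3, 18.8 and 17.8 TPM in those labelled shCTRL. The 6 libraries of the hairpin set all lay above the 9 week libraries, though tables were scaled separately. Relative to Cd8a within a library, Cd4 was 0.0518% to 1.55% in the week libraries, 1.81% to 1.96% in libraries labelled shMogat1 and 2.53% to 2.65% in libraries labelled shCTRL. Zbtb7b, which directs the helper lineage, was at 2.53 to 6.46 TPM in the week libraries, 7.25 to 7.96 TPM in those labelled shMogat1 and 8.89 to 10.02 TPM in those labelled shCTRL. Cd40lg, the CD40 ligand of helper T cells, was at 4.18 to 21.6 TPM across the CD8 tables and was 21.6 TPM in week 4 replicate 3, the library with the least Cd4. Siglech, a marker of plasmacytoid dendritic cells, which in mice can also carry CD4, was at 0.808, 13.8 and 19.4 TPM in the week 2 libraries, in the order used for Cd4, at 0.926, 8.48 and 18.4 TPM at week 3 and at 78.8, 1.96 and 31.9 TPM at week 4. Its part in the Cd4 level was not tested.

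Foxp3 was at 3.81 to 11.5 TPM over the 15 CD8 libraries, 0.594% to 2.27% of Cd3e within a library. Its levels were 11.3, 11.5 and 5.86 TPM at week 2, 9.21, 8.48 and 7.05 TPM at week 3 and 7.24, 6.39 and 3.81 TPM at week 4. Week 4 and week 2 overlapped, and the change of -0.62 on the log2(TPM + 1) scale (SE 0.28) did not pass (limma adjusted p = 0.148). Without week 2 replicate 3 it passed (-0.9, limma adjusted p = 0.0336), and the range with each library left out was -0.9 to -0.38.

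**Figure D1:**
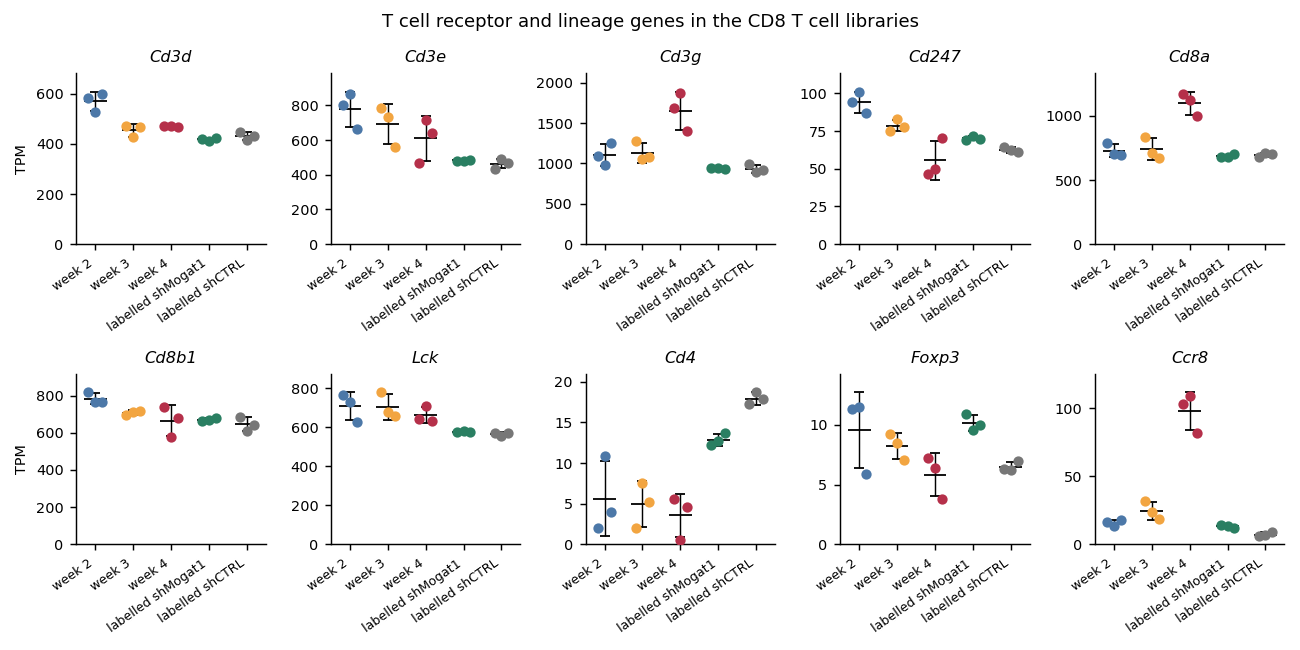
TPM of the 10 genes in the 15 CD8 T cell libraries (vertical axes from 0), with points for libraries, a bar for the mean and whiskers for the SD of each group. Ccr8 stands at 82.0 to 109 TPM in the 3 week 4 libraries, above all 12 others, while Cd4 is highest in the libraries labelled shCTRL.

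Week 4 CD8 T cells differed from week 2 in 4 of the 10 genes, 3 higher and 1 lower (limma on log2(TPM + 1), Benjamini-Hochberg adjusted p under 0.05 over 13350 genes). In the same comparison 17.5% of all genes tested passed, 10.3% higher and 7.18% lower, and 37.0% had groups that did not overlap. Ccr8 rose most, by 2.54 on the log2 scale, then Cd8a by 0.59 and Cd3g by 0.58, and Cd247 fell by 0.77. The median change of the 10 genes was -0.26, beside -0.01 for all genes tested.

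Ccr8 was at 16.4, 13.7 and 17.7 TPM at week 2, 31.8, 23.8 and 18.3 TPM at week 3 and 102.8, 109 and 82.0 TPM at week 4. The lowest week 4 library lay above the highest of the earlier weeks, and the groups did not overlap. The mean was 97.9 ± 14.1 TPM at week 4, against 15.9 ± 2.03 TPM at week 2 (SD, n = 3 each), a log2 change of 2.54 (SE 0.2, limma adjusted p = 0.00121). Ccr8 was 14.2 to 21.5 times Foxp3 within week 4 libraries, against 1.2 to 3.02 times within week 2 libraries; this ratio was not tested. Relative to Cd3e, Ccr8 was 12.8% to 21.9% at week 4, against 1.59% to 2.67% at week 2.

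Both CD8 coreceptor chains are needed for the CD8 alpha beta pair, and Cd8a alone of the 2 passed the test. Cd8a was at 787, 700.2 and 696 TPM at week 2, 835, 715 and 673 TPM at week 3 and 1173, 1128 and 996 TPM at week 4. All 3 week 4 libraries lay above all 6 earlier ones, and the week 4 mean was 1099 ± 91.9 TPM, against 727.8 ± 51.5 TPM at week 2 (SD, n = 3 each; log2 change 0.59, SE 0.11, limma adjusted p = 0.01004). Cd8b1 was at 820.2, 764 and 767 TPM at week 2, 693, 712 and 719 TPM at week 3 and 741, 577 and 679 TPM at week 4. Its log2 change was -0.24 (SE 0.1, limma adjusted p = 0.127), short of the threshold although week 4 and week 2 did not overlap. Cd8b1 over Cd8a within a library was 0.512 to 0.681 at week 4, against 1.04 to 1.1 at week 2, with no overlap; this ratio was not among those tested.

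Of the 4 signalling chains, Cd3g rose, Cd247 fell and Cd3d and Cd3e did not pass. Cd3g, the gamma chain, was at 1097, 976.5 and 1249 TPM at week 2, 1278, 1049 and 1073 TPM at week 3 and 1686, 1873 and 1404 TPM at week 4. Week 4 lay above week 2 in every library (log2 change 0.58, SE 0.14, limma adjusted p = 0.02505), but the call was lost without week 2 replicate 1 or 2 or week 4 replicate 2 or 3 (limma adjusted p = 0.0742 to 0.0915), in a fit of the 2 weeks alone and with no filter on low values (limma adjusted p = 0.0633). Cd247, the zeta chain, was at 94.2, 101 and 87.1 TPM at week 2, 75.3, 83.0 and 77.6 TPM at week 3 and 46.2, 50.04 and 70.5 TPM at week 4. Its week 4 libraries lay below both earlier weeks (week 4 against week 2: log2 change -0.77, SE 0.15, limma adjusted p = 0.01152).

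Cd3d, the delta chain, averaged 470.6 ± 3.8 TPM at week 4 and 571 ± 38.0 TPM at week 2 (SD, n = 3 each), a log2 change of -0.28 (SE 0.09) that missed the threshold (limma adjusted p = 0.0562) and passed under quantile normalization (-0.3, limma adjusted p = 0.0424). Cd3e, the epsilon chain, averaged 609 ± 128 TPM at week 4 and 777 ± 103 TPM at week 2, and its groups overlapped (log2 change -0.36, SE 0.19, limma adjusted p = 0.192). Lck had a log2 change of -0.1 (SE 0.11, limma adjusted p = 0.567) and overlapped between the weeks. Cd4 had a log2 change of -0.54 (SE 0.66, limma adjusted p = 0.587), and its sign turned without week 4 replicate 3 (0.11).

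Other T cell genes were set beside these from lists. Of 24 genes of proximal T cell receptor signalling, 0 rose and 3 fell: Prkcq, the kinase that links the receptor to NF-kappaB (log2 change -0.86), the adaptor Lat (-0.78) and the SLAM adaptor Sh2d1a (-0.62); the list's median was -0.29. Of 10 regulatory and helper genes, 4 rose and 1 fell, with Ikzf2, the Helios factor, at 64.8 ± 16.7 TPM at week 4 and 17.0 ± 2.22 TPM at week 2 (SD, n = 3 each; log2 change 1.85, limma adjusted p = 0.00398). Il2ra, the interleukin 2 receptor alpha chain, changed by 0.97 and Ikzf4, the Eos factor, by 0.85, while Gpr83 fell by 1.48. Of 4 pan T cell genes, Thy1 rose (0.88) and Cd5 (-0.81) and Cd2 (-0.52) fell.

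Genes on marker lists of other cells moved in the same comparison. Of 4 gamma-delta T cell genes tested, 2 rose, among them Il17a (log2 change 3.38), and the list's summed level was 49.9 to 80.3 TPM at week 4, against 17.3 to 23.8 TPM at week 2. Of 7 NK cell genes tested, 2 rose: Gzma, a granzyme that cytotoxic T cells also carry (3.12), and Tyrobp (2.42). The list's summed level was 342 to 1151 TPM at week 4, against 76.8 to 271 TPM at week 2. Gzma (mean 352 ± 329 TPM at week 4, SD) and Tyrobp (mean 283 TPM) weighed heavily in it, so the sum does not measure NK cells alone. None of the 10 macrophage genes passed, and their sum was 352 to 511 TPM at week 4, against 67.4 to 436 TPM at week 2. The dendritic cell list had 1 of 8 genes past the threshold, Ccr7, which naive T cells also carry, lower by 1.37 on the log2 scale, and the B cell list 0 of 7. Of 9 epithelial genes tested, Cdh1 rose (2.14) and Krt19 fell (-2.1), and the list summed to 163 to 247 TPM at week 4, against 78.5 to 121 TPM at week 2. Cdh1 weighed heavily in that sum, with means of 109 TPM at week 4 and 23.3 TPM at week 2. Epcam did not pass (log2 change 0.9, limma adjusted p = 0.0689), so the sum does not measure the epithelial genes evenly. Of the 6 genes on the gamma-delta list, only 5 had a row in the deposited data. No listed gene with a row was at 0 in every library of a week, which says nothing of a gene without one. The part of these other cells in the changes of Ccr8, Cd8a, Cd3g and Cd247 was not tested.

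At week 3, 0 of the 10 genes passed against week 2, beside 0.0449% of all genes tested, 6 of 13350, and 20.4% with groups that did not overlap, while 1825 genes had an unadjusted limma p under 0.05. Week 4 and week 3 were compared in the same fit and share the week 4 libraries with the comparison above. There 2 of the 10 genes passed, beside 2.67% of all genes, or 1.38% higher, and 32.7% with groups that did not overlap: Ccr8 (log2 change 1.97, SE 0.2, limma adjusted p = 0.00513) and Cd8a (0.57, SE 0.11, limma adjusted p = 0.0348). The Cd8a call was lost without week 3 replicate 3 or 4 or week 4 replicate 2 or 3 (limma adjusted p = 0.104 to 0.143), with no filter and in a fit of the 2 weeks alone. Cd3g (0.54, limma adjusted p = 0.0776) and Cd247 (-0.52, limma adjusted p = 0.0998) had no overlap between week 4 and week 3 but missed the threshold; both passed without week 4 replicate 4 (0.65 and -0.7). The median change of all genes was 0.1 for week 3 against week 2, or -0.01 after rescaling by the median of ratios, and -0.13 for week 4 against week 3, or 0.00 after it.

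In the CD8 T cells of the hairpin set the receptor and CD8 genes differed by little between the arms, while Foxp3, Ccr8 and Cd4 moved. Of the 10 genes, 3 were higher and 1 lower in libraries labelled shMogat1 than in those labelled shCTRL, beside 42.8% of all 13742 genes tested, 16.6% higher and 26.2% lower, and 54.8% with arms that did not overlap. Replicates of the hairpin set had median squared differences of 2.28 to 3.3 times the Poisson expectation, less than those of the week libraries, as given above. The arms are named as labelled, since Mogat1 went against the labels in the tumor libraries.

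Cd4 was at 12.3, 12.7 and 13.7 TPM in libraries labelled shMogat1, against 17.3, 18.8 and 17.8 TPM in those labelled shCTRL. The arms did not overlap, with means of 12.9 ± 0.733 TPM in libraries labelled shMogat1 and 17.95 ± 0.763 TPM in those labelled shCTRL (SD, n = 3 each; log2 change -0.45, SE 0.06, limma adjusted p = 0.00104). Beside it Siglech was at 4.42, 3.97 and 5.59 TPM in libraries labelled shMogat1, against 27.6, 29.5 and 27.6 TPM in those labelled shCTRL (log2 change -2.38). Flt3, a receptor of dendritic cells and their precursors, fell by 1.8 on the log2 scale, and the dendritic list had 5 of 8 genes lower and 1 higher. Of these 5, Clec9a averaged 0.478 TPM in libraries labelled shMogat1 and 1.615 TPM in those labelled shCTRL. It passed the filter on low values only through the libraries labelled shCTRL, so it had to be lower once tested. The dendritic list's summed level was 758 to 797.5 TPM in libraries labelled shMogat1, against 587 to 599 TPM in those labelled shCTRL. That sum includes Ccr7, which naive T cells also carry and which averaged 1551 TPM at week 2 and 665 TPM at week 4 in the CD8 week libraries. It therefore does not measure dendritic cells alone. The part of dendritic cell RNA in the change of Cd4 was not tested.

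Foxp3 was at 10.9, 9.54 and 9.97 TPM in libraries labelled shMogat1, against 6.27, 6.24 and 6.98 TPM in those labelled shCTRL. The arms did not overlap (log2 change 0.57, SE 0.08, limma adjusted p = 0.000993). Ccr8 was at 14.2, 13.5 and 11.8 TPM in libraries labelled shMogat1, against 6.01, 6.55 and 8.97 TPM in those labelled shCTRL. All 3 libraries labelled shMogat1 were higher (log2 change 0.81, SE 0.14, limma adjusted p = 0.0024). Foxp3 over Cd3e was 1.99% to 2.27% in libraries labelled shMogat1, against 1.28% to 1.49% in those labelled shCTRL, and Cd4 over Cd8a was 1.81% to 1.96%, against 2.53% to 2.65%. For both ratios the exact two-sided permutation test gave p = 0.1, the smallest that 3 libraries against 3 allow (adjusted p = 0.6 over the 12 ratios tested).

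Cd247 was at 69.3, 71.7 and 69.8 TPM in libraries labelled shMogat1, against 64.5, 62.1 and 61.0 TPM in those labelled shCTRL. It was higher by 0.17 on the log2 scale (SE 0.04, limma adjusted p = 0.00914). The other 6 genes missed the threshold: Cd3e was at 480.1, 480.1 and 486 TPM in libraries labelled shMogat1, against 434, 489 and 469 TPM in those labelled shCTRL (log2 change 0.06, SE 0.04), and the changes of Cd3d, Cd3g, Cd8a, Cd8b1 and Lck lay between -0.05 and 0.05. Cd8b1 passed without shCTRL replicate 1 (0.1, limma adjusted p = 0.0252). The signs of Cd3d, Cd3g and Cd8a turned under another scaling.

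Among the other T cell genes of this comparison, 15 of 24 receptor signalling genes were higher and 0 lower in libraries labelled shMogat1. The costimulatory receptor Cd28 was at 184.9 ± 5.24 TPM in libraries labelled shMogat1 and 128.1 ± 10.2 TPM in those labelled shCTRL (SD, n = 3 each; log2 change 0.53, limma adjusted p = 0.000279). Themis changed by 0.52 and the adaptor Grap2 by 0.5. Of 10 regulatory and helper genes 5 were higher and 2 lower, with the inhibitory receptor Ctla4 (0.65) and Gpr83 (0.61) among the higher and Lrrc32 (-0.56) among the lower. Epithelial RNA moved with the arms as well: the list's summed level was 239 to 243 TPM in libraries labelled shMogat1, against 94.7 to 102 TPM in those labelled shCTRL, and Krt8 was at 31.5 to 34.3 TPM, against 2.02 to 2.45 TPM. Epcam was at 28.3 to 30.35 TPM, against 2.82 to 4.57 TPM (log2 change 2.66, limma adjusted p = 5.36e-06). The tumor libraries labelled shMogat1 held 28.4 to 30.8 TPM of Epcam, though tables were scaled separately. In the CD8 libraries the macrophage list summed to 2495 to 2609 TPM under the shMogat1 label, against 2287 to 2346 TPM under the shCTRL label, above the 67.4 to 898 TPM of the week libraries. The NK cell list had 4 of 7 genes lower and 0 higher, with a summed level of 190.3 to 197 TPM in libraries labelled shMogat1, against 256 to 274 TPM in those labelled shCTRL. Of these 4, Ncr1 averaged 0.586 TPM in libraries labelled shMogat1 and 2.43 TPM in those labelled shCTRL. It passed the filter on low values only through the libraries labelled shCTRL, so it had to be lower once tested. The part of epithelial, macrophage and NK cells in the changes of the T cell genes was not tested.

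In the tumor week libraries the CD3 chains, Cd247, the CD8 chains and Lck had means of 3.37% or less of their means in CD8 T cells of the same week. Mean Cd3e in tumor libraries equalled 2.33% of its mean in CD8 T cells at week 2, 1.46% at week 3 and 1.27% at week 4, and mean Cd8a 1.86%, 0.969% and 0.149%. Cd4 was at 232%, 83.5% and 48.8% at weeks 2, 3 and 4, Foxp3 at 20.8%, 9.54% and 5.46%, and Ccr8 at 16.8%, 4.32% and 0.758%. The week 2 tumor mean of Cd4 rested mostly on replicate 1, at 30.2 TPM, against 5.71 and 3.27 TPM in replicates 2 and 3. Mean Ccr8 in CD8 T cells rose from 15.9 TPM at week 2 to 97.9 TPM at week 4, while its tumor mean fell from 2.68 to 0.742 TPM. The tables were scaled separately, so these are descriptions.

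**Figure D2:**
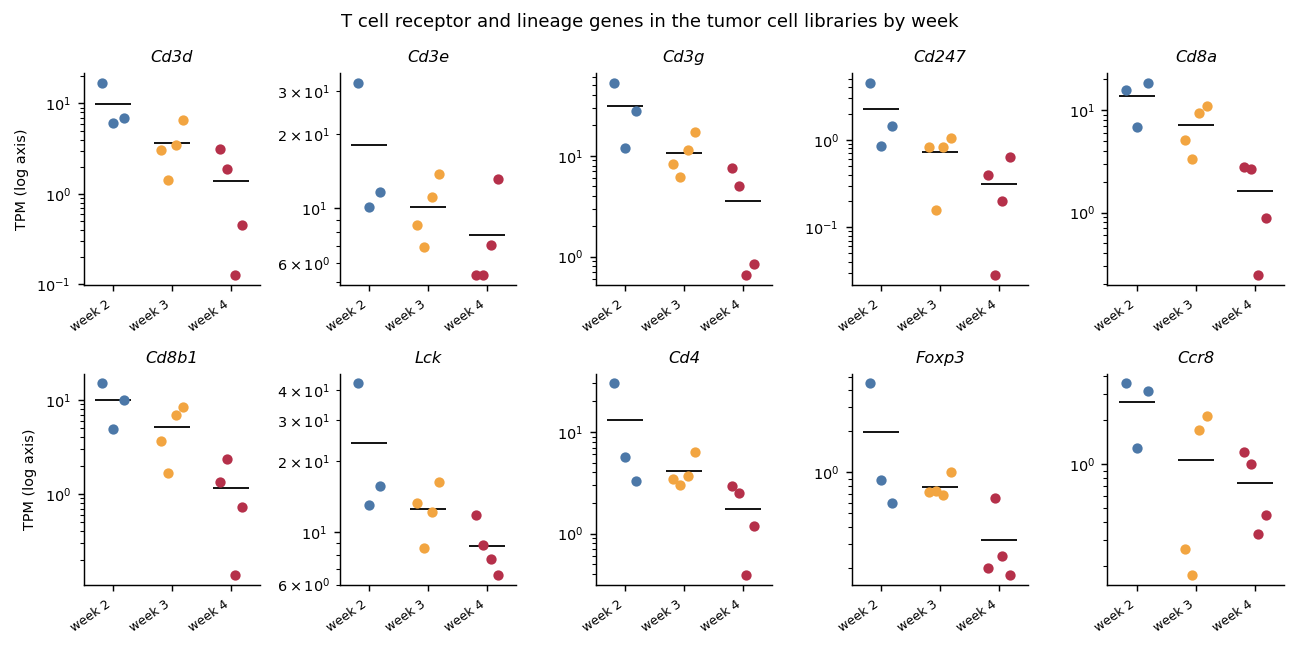
TPM of the 10 genes (log axes) in the 11 tumor libraries of weeks 2, 3 and 4, with points for libraries in order of replicate number and a bar for the mean. Week 2 replicate 1 is the highest library for Cd3d, Cd3e, Cd3g and Lck, and week 4 replicates 3 and 4 are the lowest for Cd3d, Cd3g and Cd8a but not for Cd3e.

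Week 4 tumors had lower levels than week 2 tumors in 8 of 9 genes tested, all but Cd3e, by limma on log2(TPM + 1). In the same comparison 46.3% of all 14770 genes passed, 29.2% higher and 17.1% lower, and 45.0% had groups that did not overlap. The median change of the 9 genes was -1.92, beside 0.11 for all genes, and rescaling by the median of ratios moved the all-gene median to -0.01. In bulk libraries such as these, fewer T cells, less RNA per T cell and a larger share of RNA from other cells cannot be told apart. The labels also do not say how the cells were isolated.

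Cd3g was at 52.7, 11.9 and 28.0 TPM at week 2, 8.35, 6.21, 11.3 and 17.2 TPM at week 3 and 7.61, 5.0, 0.655 and 0.844 TPM at week 4. Week 4 lay below week 2 in every library (log2 change -2.94, SE 0.63, limma adjusted p = 0.0033). Cd3d was at 16.9, 6.09 and 6.87 TPM at week 2, 3.06, 1.44, 3.48 and 6.51 TPM at week 3 and 3.15, 1.87, 0.127 and 0.457 TPM at week 4. It also did not overlap between week 4 and week 2 (log2 change -2.25, SE 0.51, limma adjusted p = 0.00428).

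Cd8a was at 15.5, 6.76 and 18.4 TPM at week 2, 5.04, 3.36, 9.4 and 10.9 TPM at week 3 and 2.77, 2.65, 0.245 and 0.883 TPM at week 4. Its week 4 libraries lay below those of both earlier weeks, with log2 changes of -2.51 against week 2 (SE 0.48, limma adjusted p = 0.00168) and -1.67 against week 3 (SE 0.45, limma adjusted p = 0.0309). Cd8b1 was at 15.2, 4.96 and 10.2 TPM at week 2, 3.69, 1.68, 7.0 and 8.44 TPM at week 3 and 1.34, 2.37, 0.135 and 0.732 TPM at week 4. It fell by 2.37 on the log2 scale between week 4 and week 2 (SE 0.49, limma adjusted p = 0.0028).

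Lck averaged 8.75 ± 2.28 TPM at week 4 (SD, n = 4) and 23.9 ± 16.5 TPM at week 2 (SD, n = 3), a log2 change of -1.19 (SE 0.36, limma adjusted p = 0.0186). Cd247 averaged 0.315 ± 0.261 TPM at week 4 and 2.27 ± 1.96 TPM at week 2 (log2 change -1.17, SE 0.35, limma adjusted p = 0.0184). Cd4 was at 30.2, 5.71 and 3.27 TPM at week 2, 3.48, 2.97, 3.72 and 6.31 TPM at week 3 and 2.92, 2.52, 0.386 and 1.19 TPM at week 4. It fell by 1.92 on the log2 scale (SE 0.59, limma adjusted p = 0.0209), but week 2 replicate 1 alone held most of the week 2 level, and without it the change was -1.07 (limma adjusted p = 0.0506). The call was also lost without week 4 replicate 3 (limma adjusted p = 0.0561) and in a fit of the 2 weeks alone.

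Ccr8 averaged 0.742 ± 0.418 TPM at week 4 and 2.68 ± 1.23 TPM at week 2 (log2 change -1.05, SE 0.39, limma adjusted p = 0.0475). That call was lost without week 2 replicate 1 or 3 or any of week 4 replicates 2, 3 and 4 (limma adjusted p = 0.0625 to 0.135), with a pseudocount of 0.1, with no filter and under quantile normalization. Foxp3 was under the filter on low values, at 4.5, 0.876 and 0.596 TPM at week 2, 0.717, 0.733, 0.683 and 1.01 TPM at week 3 and 0.198, 0.651, 0.244 and 0.176 TPM at week 4. Without the filter its log2 change was -0.96 (SE 0.35, limma adjusted p = 0.0693).

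The count of 8 rested in part on a few libraries. Week 2 replicate 1 held the highest Cd3d, Cd3e, Cd3g, Cd247, Cd8b1, Lck, Cd4, Foxp3 and Ccr8 of all 11 tumor libraries, and without it 5 of 8 genes tested passed, Cd247 being under the filter. Without week 4 replicates 3 and 4, an alternative chosen after the data were seen, 5 genes passed: the calls of Cd247 (log2 change -1.29), Lck (-0.95), Cd4 (-1.38) and Ccr8 (-0.75) were lost and Cd3e passed (-1.4). Against week 2, 0 of the 9 genes passed at week 3, beside 24.1% of all genes (20.1% higher, 4.01% lower, and 26.8% with groups that did not overlap), with 5605 genes at an unadjusted limma p under 0.05 and log2 changes of the 9 from -1.3 to -0.63. Against week 3, only Cd8a passed at week 4, beside 13.7% of all genes (5.53% higher, 8.19% lower, and 29.4% with groups that did not overlap), and it lost its call without week 3 replicate 3 or 4 or week 4 replicate 3 or 4 (limma adjusted p = 0.0843 to 0.09) and with no filter (limma adjusted p = 0.0623). Cd8b1 (-1.48, limma adjusted p = 0.0543) passed there without week 3 replicate 2 (-1.83) or week 4 replicate 2 (-1.74), after median-of-ratios rescaling and with the 2 weeks alone, and Cd3g (-1.64, limma adjusted p = 0.0882) without week 4 replicate 1 (-2.07).

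Cd3e did not follow the other CD3 chains at week 4. It was at 32.5, 10.2 and 11.6 TPM at week 2, 8.54, 6.99, 11.1 and 13.8 TPM at week 3 and 5.36, 5.35, 7.13 and 13.2 TPM at week 4. Week 4 replicate 4 was above 2 of the 3 week 2 libraries, and the change did not pass (log2 change -1.02, SE 0.4, limma adjusted p = 0.0548). It passed without week 2 replicate 2 or 3 or week 4 replicate 4 (limma adjusted p = 0.0231 to 0.0485) and under both other scalings (-1.15 and -1.16). In week 4 replicates 3 and 4 the deposited values correspond to 113 and 232 reads of Cd3e, against 2 and 8 reads of Cd3d and 7 and 10 reads of Cd3g.

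Within a library, Cd3g over Cd3e was 0.0919 and 0.064 in week 4 replicates 3 and 4, 1.42 and 0.935 in replicates 1 and 2, and 1.13 to 3.6 in the CD8 week libraries. Cd3d over Cd3e was 0.0178 and 0.0346 in replicates 3 and 4, against 0.587 and 0.349 in replicates 1 and 2. Some other T cell genes of those 2 libraries, chosen after their values were seen, were low as well: Cd5, a surface receptor of T cells, was at 0.18 and 0.08 TPM and Cd6 at 0.03 and 0.26 TPM, while Ptprc, the CD45 antigen of all leukocytes, was at 3.13 and 8.33 TPM. Lck was at 7.73 and 6.56 TPM there, and Thy1, a surface protein that other cell types also carry, at 96.4 and 96.6 TPM. Cd247 overlapped between the 2 pairs of week 4 libraries. It was at 0.198 and 0.633 TPM (13 and 46 reads) in replicates 3 and 4, against 0.4 and 0.0281 TPM (29 and 2 reads) in replicates 1 and 2. Cd3e over Ptprc within a library was 0.28 to 2.28 at week 4, against 0.276 to 0.371 at week 2 (log2 difference 1.2, exact two-sided permutation p = 0.457, adjusted p = 0.686 over 12 ratios).

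**Figure D3:**
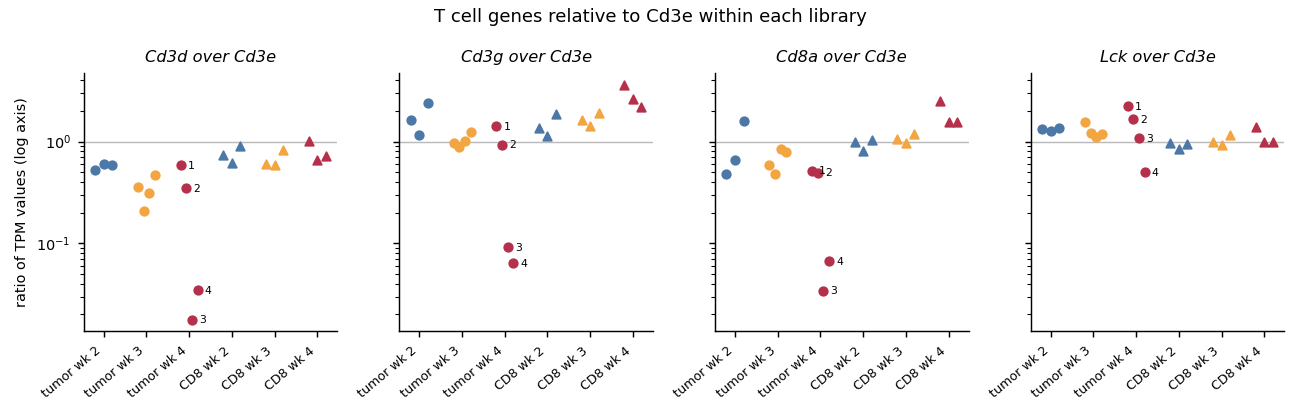
Ratio of the TPM of Cd3d, Cd3g, Cd8a and Lck to that of Cd3e within each library (log axis), for tumor (circles) and CD8 T cell (triangles) libraries of weeks 2, 3 and 4, with the replicate numbers of the week 4 tumors. Week 4 tumor replicates 3 and 4 lie below every other library for Cd3d, Cd3g and Cd8a, while for Lck only replicate 4 is the lowest.

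Cd4 over Cd8a was 1.95, 0.845 and 0.178 at week 2, 0.689, 0.885, 0.396 and 0.578 at week 3 and 1.06, 0.95, 1.58 and 1.35 at week 4. The week 4 and week 2 groups overlapped (log2 difference 0.86, exact two-sided permutation p = 0.514). All 4 week 4 libraries lay above all 4 week 3 libraries; that pair of weeks was not tested for this ratio. Foxp3 over Cd3e was 1.33% to 12.2% at week 4, against 5.13% to 13.9% at week 2 (exact p = 0.229), and Cd8a over Cd3e was 3.43% to 51.6%, against 47.7% to 158% (exact p = 0.171). The smallest p that 4 libraries against 3 allow is 0.0571, and the adjusted p of each was 0.686 over the 12 ratios.

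Other T cell and immune genes were set beside these, with 17.1% of all genes lower in the same comparison. Of 21 receptor signalling genes tested at week 4 against week 2, 16 fell and 1 rose, with the list's median at -1.55; Nfatc2, the calcium-activated factor, fell by 2.45 on the log2 scale, Ptprc by 2.17 and Cd28 by 1.96. Of 7 regulatory and helper genes tested 4 fell and 1 rose, among them Ctla4 (-2.72), Tnfrsf4 (-1.83), Il2ra (-1.81) and Ikzf2 (-1.19). Of 4 pan T cell genes, 3 fell: Cd2 (-2.47), Cd6 (-2.19) and Cd5 (-2.1). Of 3 gamma-delta genes tested, 1 rose and 1 fell, Blk being lower (-1.58). In the B cell list 6 of 7 genes fell, in the NK cell list 2 of 6, in the dendritic cell list 3 of 6 and in the macrophage list 1 of 10. The B cell list summed to 1.37 to 10.1 TPM at week 4, against 27.6 to 174 TPM at week 2, and the macrophage list to 564 to 1707 TPM, against 792 to 2963 TPM, the macrophage sums overlapping. The epithelial list summed to 1959 to 2365 TPM at week 4, against 1202 to 1567 TPM at week 2. Over the 11 tumor libraries the genes whose level followed the sum of Cd3d, Cd3e and Cd3g most closely were Cd79a (Pearson r = 0.972), Ccr7 (0.964), Lrmp (0.962), Spib (0.961), Ctla4 (0.957) and Ms4a1 (0.957), which share those libraries and the high values of week 2 replicate 1. In the 9 CD8 week libraries, Cd4 was followed most closely by Sema7a (0.931), Cthrc1 (0.899), Siglecg (0.896), Wdfy4 (0.895), Mzb1 (0.895) and Daam1 (0.894).

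In the tumor libraries of the hairpin set the T cell genes were near the floor of the measurement. Cd3g was at 3.28, 3.14 and 3.85 TPM in libraries labelled shMogat1, against 1.05, 0.806 and 0.29 TPM in those labelled shCTRL, or 47, 32 and 54 reads against 16, 10 and 4 reads. The arms did not overlap (log2 change 1.39, SE 0.18, limma adjusted p = 0.000332). In this comparison 54.5% of all 12936 genes passed, 34.6% higher and 19.9% lower in libraries labelled shMogat1, and 62.3% had arms that did not overlap.

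Cd8a was at 1.92, 1.99 and 1.37 TPM in libraries labelled shMogat1, against 0.129, 0.632 and 0.45 TPM in those labelled shCTRL (log2 change 0.98, SE 0.17, limma adjusted p = 0.00189). Cd8b1 was at 1.66, 1.35 and 2.47 TPM, against 0.19, 0.0583 and 0.21 TPM (log2 change 1.28, SE 0.17, limma adjusted p = 0.000411). Cd4 was at 2.35, 1.71 and 2.31 TPM, against 0.427, 0.547 and 0.812 TPM (log2 change 0.97, SE 0.15, limma adjusted p = 0.000771). Each of these 3 genes and Cd3e passed the filter on low values only through the libraries labelled shMogat1, so they had to differ once tested, and leaving out 1 of those libraries removed them from the test.

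Cd3e was at 1.51, 2.31 and 1.59 TPM in libraries labelled shMogat1, against 0.843, 0.706 and 0.147 TPM in those labelled shCTRL (log2 change 0.86, SE 0.21, limma adjusted p = 0.00876), and lost its call under quantile normalization. Lck was at 3.48, 2.9 and 3.3 TPM, against 2.24, 3.2 and 2.24 TPM, and overlapped (log2 change 0.26, SE 0.13, limma adjusted p = 0.125). Without shCTRL replicate 2 Lck passed (0.38, limma adjusted p = 0.0256), and under quantile normalization its change was 0.00. Cd3d, Cd247, Foxp3 and Ccr8 were under the filter. Ccr8 had 4, 8 and 4 reads in libraries labelled shMogat1 and was listed at 0 in all 3 labelled shCTRL, and Foxp3 was at 0.291, 0.23 and 0.223 TPM, against 0.0686, 0.231 and 0.208 TPM.

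**Figure D4:**
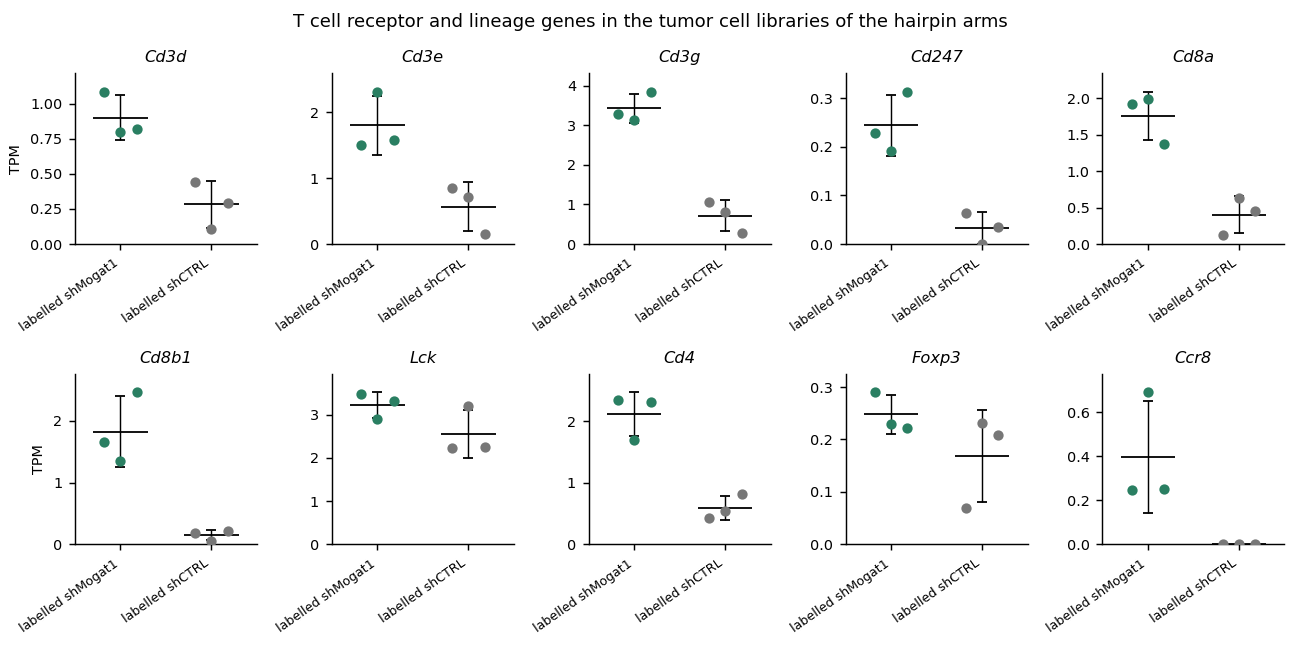
TPM of the 10 genes (vertical axes from 0) in the tumor libraries labelled shMogat1 and shCTRL, 3 libraries each, with points for libraries, a bar for the mean and whiskers for the SD. The highest value of any of the 10 genes is 3.85 TPM, for Cd3g in a library labelled shMogat1.

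Several lists of other cells differed between these arms, not all in 1 direction. Ptprc averaged 11.5 ± 0.434 TPM in libraries labelled shMogat1 and 4.06 ± 0.211 TPM in those labelled shCTRL (SD, n = 3 each; log2 change 1.3, limma adjusted p = 1.89e-06). All 10 macrophage genes were higher in libraries labelled shMogat1, beside 34.6% of all genes tested, with a summed level of 686 to 710 TPM, against 362 to 387.5 TPM. All 9 epithelial genes tested were higher too, with a summed level of 955 to 997.5 TPM, against 203 to 218 TPM. Of these 9, Epcam, Krt14 and Esrp1 averaged 0.693, 0.341 and 0.0113 TPM in libraries labelled shCTRL. They passed the filter on low values only through the libraries labelled shMogat1, so they had to be higher once tested. Of 3 NK cell genes tested 1 was higher, Tyrobp (log2 change 1.15, limma adjusted p = 3.37e-05), and 1 lower, Klra4 (log2 change -1.82, limma adjusted p = 9.51e-08). Tyrobp averaged 30.6 TPM in libraries labelled shMogat1 and 13.4 TPM in those labelled shCTRL, and Klra4 averaged 16.7 and 61.5 TPM. The list's summed level mixed these opposite changes, at 49.1 to 49.96 TPM in libraries labelled shMogat1, against 73.2 to 77.8 TPM in those labelled shCTRL. Cd3e over Ptprc within a library was 0.126 to 0.205 in libraries labelled shMogat1, against 0.038 to 0.21 in those labelled shCTRL, and overlapped (exact two-sided permutation p = 0.9, adjusted p = 0.9). The ratios of Cd4 to Cd8a (exact p = 0.4), Foxp3 to Cd3e (exact p = 0.5) and Cd8a to Cd3e (exact p = 0.9) overlapped too. The part of leukocyte and epithelial content in the changes of the T cell genes was not tested.

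**Figure D5:**
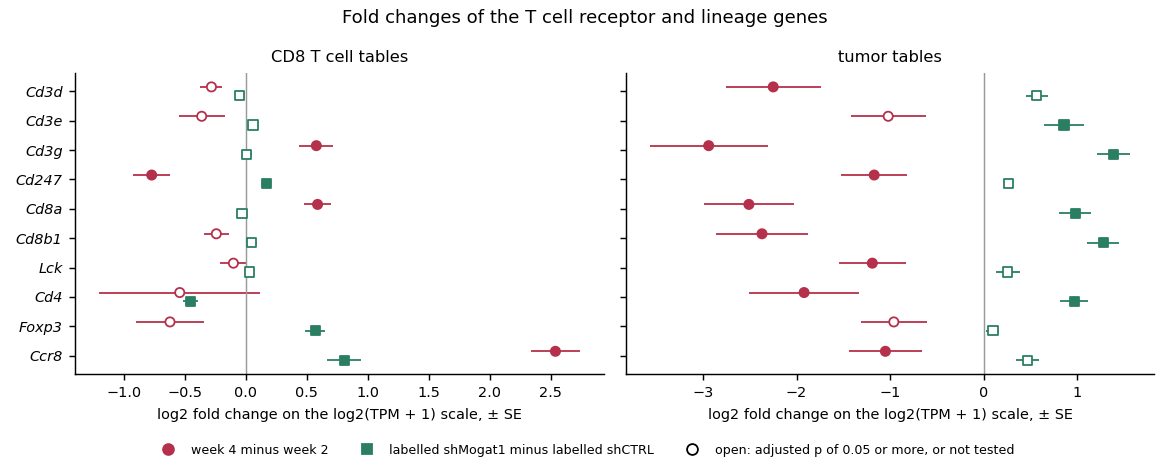
Log2 fold changes of the 10 genes with their SE on the log2(TPM + 1) scale, in the CD8 T cell tables (left) and the tumor tables (right), for week 4 minus week 2 (circles) and libraries labelled shMogat1 minus those labelled shCTRL (squares); filled symbols had a limma adjusted p under 0.05. In the CD8 tables Ccr8 moves furthest between the weeks (2.54), and in the tumor tables Cd3g does (-2.94).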

How the data were processed

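RNA was measured by stranded mRNA sequencing in 32 libraries, and the authors deposited 4 tables of TPM, each column summing to 1000000. FastQC, Trim Galore, HISAT2 and the mm10 build are named in the submitters' processing notes; the counter, annotation and gene lengths are not given in the sources used here. Of 33681 rows per table, 27 whose symbols had turned into dates were dropped; 0 columns lacked a sample. Tables were scaled separately, so tests stayed within a table. The 10 genes and the gene lists were chosen with earlier results of these data known. limma 3.58.1 (R 4.3.3; lmFit, eBayes with trend) was run on log2(TPM + 1) over genes at 1 TPM or more in at least 3 libraries, with all groups of a table in 1 fit and Benjamini-Hochberg adjustment at 0.05. A fold change on this scale understates the change of low genes. In all, 12 ratios within a library were compared by exact two-sided permutation tests (SciPy 1.17.1, Python 3.11.15). The fits were tested on simulated data. Alternatives were a pseudocount of 0.1, no filter, median-of-ratios rescaling, quantile normalization, a replicate block, 2 groups only and leaving out each library; leaving out week 4 tumor replicates 3 and 4 was added after seeing the data. Same-numbered replicates did not deviate together in every pair of any tumor comparison, each with 3 or more pairs, so they were not paired. CD8 comparisons had 2 such pairs each, too few to judge pairing, and were fitted unpaired as well. Their correlations of deviations were 0.1 and 0.43 at week 3 against week 2 and -0.24 and -0.11 at week 4 against week 2. They were -0.08 and 0.14 at week 4 against week 3 and 0.03 and 0.05 between arms.

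All 10 genes were named for week 4 against week 2 and between arms. For the other pairs of weeks, the genes that did not pass were named only in part. Of the lists, counts and up to 4 genes past the threshold with the largest log2 change were named, not in every comparison. Other genes set beside them were chosen after their values were seen. The 6 genes most like the summed CD3 chains (tumor) or Cd4 (CD8) by Pearson correlation were named for the week tables; in the hairpin tables that correlation only separates 2 tight arms and is not reported. The authors' TPM held whole multiples of 1 read for 5443 genes, from which reads of the 10 genes were recovered for description; 65.2% of recovered counts from 1 to 12 were even, so counts may hold both ends of a fragment. No library totals were used. Trac, Trbc1 and Trbc2 were not analysed here, and some list genes that this rule would name are not reported here.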

Additional observations from a re-analysis of the deposited data

Results flagged for a closer look

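Of 28 sets of 4 tumor libraries (10 genes and 4 ratios at weeks 3 and 4) checked for a single library far from the rest, 2 were marked, both for Foxp3; chance marks about 1 in 20 such groups of libraries. Foxp3 was at 1.01 TPM in week 3 tumor replicate 4, with the other 3 libraries at 0.683 to 0.733 TPM. It was at 0.651 TPM in week 4 tumor replicate 2, with the other 3 at 0.176 to 0.244 TPM. These 2 libraries held 34 and 29 reads of Foxp3, against 26 to 29 and 8 to 10 reads in the others of their week.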

How the results depend on the processing

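Of the 10 genes, the number past the threshold for week 4 against week 2 tumors was 8, or 5 without week 4 replicates 3 and 4 (chosen after seeing the data), and 5 to 9 with each library left out; for week 3 against week 2 it was 0, or 2 under quantile normalization (Cd3d and Lck); for week 4 against week 3 it was 1, or 0 with no filter, with the replicate block or without those libraries, 2 with median-of-ratios rescaling or the 2 weeks alone, and 0 to 2 with each library left out. For CD8 T cells at week 4 against week 3 it was 2, or 1 with no filter, the replicate block or the 2 weeks alone, and 1 to 4 with each library left out; at week 4 against week 2 it was 3 to 5. Between arms it was 5 in tumors, or 8 with no filter and 1 to 6 with each library left out, and 4 to 5 in CD8 T cells. The cause was not tested, except that fewer genes pass the filter without a library labelled shMogat1.

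Signs turned for changes that had not passed. In tumors, Ccr8 at week 4 against week 3 was 0.04 under quantile normalization, 0.16 without replicates 3 and 4, and -0.37 to 0.10 with each library left out. In CD8 T cells at week 3 against week 2, median-of-ratios rescaling gave Cd3g -0.09 and Cd8a -0.1, Lck was 0.05 under quantile normalization and 0.03 with the block, and the block gave Cd4 0.16 and Foxp3 0.11; leaving out each library gave Cd3g -0.05 to 0.12, Cd8a -0.07 to 0.09, Lck -0.09 to 0.05, Cd4 -0.5 to 0.48 and Foxp3 -0.43 to 0.00. At week 4 against week 3, rescaling gave Cd8b1 0.04 and Lck 0.05, and leaving out gave Cd8b1 -0.18 to 0.00 and Cd4 -0.91 to 0.17; at week 4 against week 2, Cd4 was -0.98 to 0.11. Between arms, Lck in tumors was 0.00 under quantile normalization; in CD8 T cells Cd3d was 0.01 and 0.03 and Cd8a 0.03 and 0.02 under rescaling and quantile normalization, and Cd3g was -0.03 under quantile normalization, -0.01 with the block and -0.02 to 0.06 with each library left out. Among ratios, leaving out each library gave log2 differences of -0.09 to 1.64 for Cd4 over Cd8a at week 4 against week 2 in tumors and, between tumor arms, -0.76 to 1.41 for Cd8a over Cd3e and -0.27 to 0.96 for Cd3e over Ptprc.

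Over all genes, calls were 3560 for week 3 against week 2 tumors (1637 with the 2 weeks alone) and 2026 for week 4 against week 3 (3857 with the 2 weeks alone, 456 without replicates 3 and 4). In CD8 T cells they were 2335 at week 4 against week 2 (1422 with the block, 1356 with the 2 weeks alone) and 356 at week 4 against week 3 (605 under quantile normalization, 234 with no filter, 3 with the block). With each library left out these 4 counts were 1371 to 5751, 1251 to 1656, 928 to 3115 and 46 to 630 in the same sequence of comparisons, and 5 to 10 for CD8 T cells at week 3 against week 2 (6 with all libraries). Same-numbered replicates were not shown to be paired (lowest correlation of deviations -0.26); the block left 0 of 6 CD8 calls at week 3 against week 2 and ended the calls of Cd247 between CD8 arms (0.13), of Ccr8 in week 4 against week 2 tumors and of Cd8a at week 4 against week 3 in tumors and in CD8 T cells, while Cd3e passed in week 4 against week 2 tumors (-1.23). Median-of-ratios rescaling changed the split of higher and lower calls to 3539 and 3435 (main 4318 and 2525) for week 4 against week 2 tumors, 1951 and 1418 (main 2967 and 593) for week 3 against week 2, 324 and 155 (main 184 and 172) for CD8 week 4 against week 3, 3107 and 3758 (main 4479 and 2573) between tumor arms and 3008 and 2972 (main 2279 and 3599) between CD8 arms. Library totals are unknown, and in the tumor arms each of the 10 genes rests on 114 reads or fewer in every library.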
